A study of Mus musculus with 11 samples.

Results

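H3K27me3, the trimethyl mark that Polycomb complexes place on histone H3, was compared between the cap mesenchyme and the ureteric epithelium of the embryonic mouse kidney. The members were all peaks of the deposited H3K27me3 list of each population on chromosomes 1 to 19 and X. There were 105945 peaks in cap mesenchyme and 136696 in ureteric epithelium, together 242641 of the 378873 peaks that the 6 lists of the series hold on these chromosomes. A peak was shared when it overlapped a peak of the other list by at least 1 bp, and private otherwise. Each population had 1 list, so every value below is a description with no replicate check, and no test between the populations was possible.

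The cap mesenchyme cells, the nephron progenitors, were sorted as Cited1-RFP+ at E18.5 from mice with the genotype Cited1nuc-TagRFP-T, of (C57BL/6 x DBA)F1 origin and on a C57BL/6J background (N5). The ureteric cells, whose tube becomes the collecting ducts, were sorted as Hoxb7-GFP+ at E15.5 from Hoxb7myr-Venus/+ mice of (C57BL/6J x CBA/J)F2 origin, also on C57BL/6J. The sorted cells are thus those in which the regulatory sequences of Cited1 or Hoxb7 drive a reporter, and how many embryos were pooled is not given in the sources used here. H3K4me3, the mark of active or poised starts, was mapped in the same populations, and wild-type E14 stem cells (129/Ola, passage 15) gave one more H3K27me3 list. That list held 12731 peaks on the same chromosomes, far fewer than either kidney list. The RNA libraries, 1 per tissue, were of hand-dissected metanephric mesenchyme and ureteric bud of E11.5 embryos (C57BL/6, wild type), and that mesenchyme also holds stromal cells. Age, reporter, strain origin and list length differ between the populations together with the cell type, and their parts in the differences below cannot be told apart.

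H3K27me3 is written by the methyltransferases Ezh1 and Ezh2 within Polycomb repressive complexes and is bound by Cbx proteins. It lies in broad stretches over the silent genes of transcription factors that steer other lineages. In the kidney the cap mesenchyme and the ureteric epithelium signal to each other, and each uses its own set of such factors: Six2, Osr1 and Wt1 in the progenitors, and Emx2, Lhx1 and Gata3 in the ureteric tree.

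The labels were checked on H3K4me3 within 1 kb of the start of marker genes. It was found at 24 of 25 progenitor genes in cap mesenchyme and 23 in ureteric epithelium, and at 19 and 20 of 25 ureteric genes, so presence of this mark at the lists separated the populations little. Gata3, Tfap2a, Tfap2b and Calb1 had it in ureteric epithelium alone, while Hoxb7, whose regulatory sequence drives the ureteric reporter, Wnt9b and Upk3a had it in cap mesenchyme alone. Hoxb7 was not single in this, as all genes from Hoxb3 to Hoxb9 had H3K4me3 in cap mesenchyme alone. Their E11.5 RNA was 13.1 to 75.8 FPKM in ureteric bud and 7.70 to 32.7 FPKM in metanephric mesenchyme. Why the ureteric H3K4me3 list lacks these starts was not tested. Of other cell types, 8 of 15 endothelial genes had H3K4me3 in cap mesenchyme and all 15 in ureteric epithelium, and 3 and 2 of 15 blood genes did. No endothelial or blood gene was among the H3K27me3 calls below, and the part of such cells in the H3K27me3 differences was not tested.

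Promoters rich in the dinucleotide CG are a known substrate of Polycomb, so the promoters of 6 regulators are shown, a pair from each pattern of coverage described below. Six2 (chr17:85688255-85688504, minus strand) and Tcf21 (chr10:22820144-22820393, minus strand) lay under ureteric H3K27me3 and had no cap mesenchyme peak. Lhx1 (chr11:84525535-84525784, minus strand) and Emx2 (chr19:59458440-59458689, plus strand) were covered mainly in cap mesenchyme. Foxa2 (chr2:148046970-148047219, minus strand), a factor of the endoderm, and Olig2 (chr16:91225300-91225549, plus strand), a factor of the nervous system, were covered in both. Each sequence is the 250 bases before the gene start from RefSeq (GRCm38.p6), 5′ to 3′, with each CG in capitals.
Six2: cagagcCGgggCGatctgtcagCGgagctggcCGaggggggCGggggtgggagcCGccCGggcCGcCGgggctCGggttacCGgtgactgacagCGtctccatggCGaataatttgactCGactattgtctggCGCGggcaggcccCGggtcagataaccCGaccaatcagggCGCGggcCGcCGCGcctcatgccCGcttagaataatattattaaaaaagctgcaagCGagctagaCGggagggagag
Tcf21: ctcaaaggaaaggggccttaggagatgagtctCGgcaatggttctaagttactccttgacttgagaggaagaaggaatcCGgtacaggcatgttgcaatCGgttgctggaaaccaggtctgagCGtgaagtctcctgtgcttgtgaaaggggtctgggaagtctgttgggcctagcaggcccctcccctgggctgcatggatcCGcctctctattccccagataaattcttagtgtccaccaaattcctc
Lhx1: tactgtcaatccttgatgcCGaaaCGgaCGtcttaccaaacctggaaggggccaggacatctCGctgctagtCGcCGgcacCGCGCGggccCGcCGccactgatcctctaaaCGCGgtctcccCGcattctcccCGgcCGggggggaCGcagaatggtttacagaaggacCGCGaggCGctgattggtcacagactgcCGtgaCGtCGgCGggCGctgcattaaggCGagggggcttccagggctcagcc
Emx2: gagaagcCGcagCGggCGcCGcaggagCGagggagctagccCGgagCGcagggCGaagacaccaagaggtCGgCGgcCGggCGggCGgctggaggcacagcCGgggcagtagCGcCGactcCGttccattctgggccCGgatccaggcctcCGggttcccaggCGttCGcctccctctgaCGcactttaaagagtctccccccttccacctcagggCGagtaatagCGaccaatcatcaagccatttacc
Foxa2: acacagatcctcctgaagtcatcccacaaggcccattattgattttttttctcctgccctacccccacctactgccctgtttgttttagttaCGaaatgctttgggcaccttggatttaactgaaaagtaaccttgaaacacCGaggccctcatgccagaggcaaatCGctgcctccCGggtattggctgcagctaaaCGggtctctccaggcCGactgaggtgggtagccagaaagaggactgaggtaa
Olig2: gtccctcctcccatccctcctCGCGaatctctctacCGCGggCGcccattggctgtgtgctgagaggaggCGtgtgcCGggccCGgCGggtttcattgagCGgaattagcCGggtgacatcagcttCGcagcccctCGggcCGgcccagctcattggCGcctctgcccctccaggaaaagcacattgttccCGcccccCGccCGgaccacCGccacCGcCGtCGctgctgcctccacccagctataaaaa
The Six2, Lhx1, Emx2 and Olig2 promoters held 26, 26, 24 and 22 CG, while those of Tcf21 and Foxa2 held 5 and 6. Of all 17274 protein-coding promoters in the RefSeq table, 51.0% held 10 or more CG in this length. High and low counts were thus seen at genes covered in ureteric epithelium and at genes covered in both populations. The table held promoters for 62.5% of the protein-coding genes covered more in ureteric epithelium and for 77.8% of those covered more in cap mesenchyme, against 79.9% of all. Of the promoters held, 17 of 30 (56.7%) at genes covered more in ureteric epithelium had 10 or more CG. The counts were 10 of 14 (71.4%) at genes covered more in cap mesenchyme and 138 of 180 (76.7%) at genes covered in both. Promoters were missing for part of each group, and no test between the groups was run.

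Most peaks of both lists were short and private, while the wide ones were shared. Of the cap mesenchyme peaks 38.1% (95% exact binomial interval 37.8 to 38.4) overlapped a ureteric peak, and of the ureteric peaks 24.6% (24.4 to 24.9) overlapped one of cap mesenchyme. These intervals, like all below, cover counting error over peaks or genes only. The shared share was 26.7% for cap mesenchyme peaks under 200 bp and 97.1% for those of 2 to 5 kb. In ureteric epithelium it was 10.96% under 200 bp, 87.9% at 2 to 5 kb and 96.8% from 5 kb. The authors' score, whose meaning the sources used here do not give, was used to rank peaks within a list. By that rank the share went from 28.1% in the lowest decile to 73.4% in the highest in cap mesenchyme, and from 16.4% to 54.3% in ureteric epithelium. The median width also went up between these deciles, from 153 to 479 bp and from 251 to 601 bp. A common limit reads the scores of both lists on the same scale, which no source used here states. With scores of at least 50 in both lists the order of the populations turned, with 25.7% of the cap mesenchyme peaks and 29.995% of the ureteric peaks shared.

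**Figure D1:**
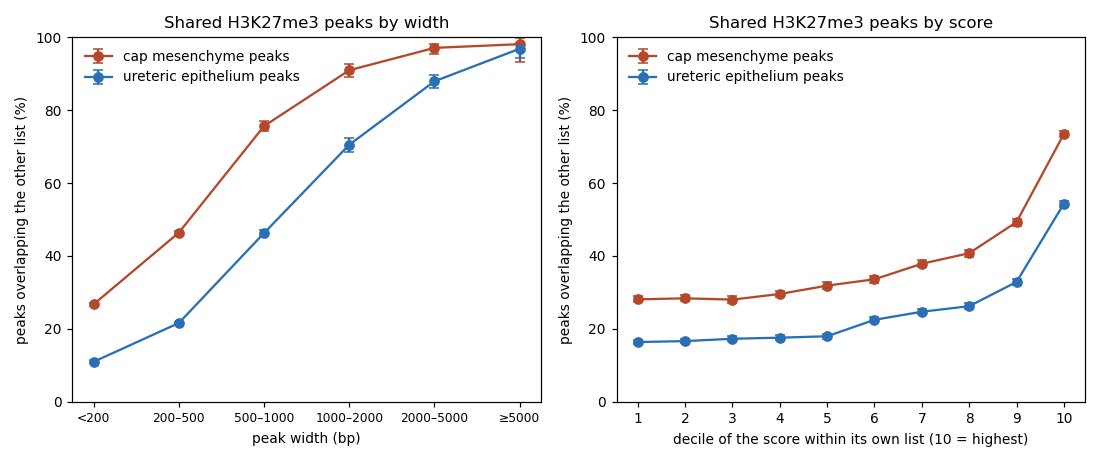
Percent of the H3K27me3 peaks of cap mesenchyme (red) and ureteric epithelium (blue) that overlap the other list by at least 1 bp, by peak width in bp (left) and by decile of the score within the own list (right); bars are 95% exact binomial intervals over peaks. The share goes from 26.7% and 10.96% at the narrowest peaks to 98.1% and 96.8% at the widest, a rise that the 1 bp rule favours.

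Shared peaks touched gene starts, stem cell H3K27me3 and H3K4me3 more often than private ones. These contacts were also counted from 1 bp, which favours wider peaks. The median width of shared peaks was 232 bp in cap mesenchyme and 366 bp in ureteric epithelium, above that of private ones. The part of width in the rates below was not tested. In cap mesenchyme 6.75% of the shared and 2.09% of the private peaks touched a gene start within 1 kb, and in ureteric epithelium 5.28% and 2.00% did. The shorter stem cell H3K27me3 list, of 12731 peaks, overlapped 15.1% of the shared and 2.41% of the private cap mesenchyme peaks. In ureteric epithelium it overlapped 10.2% and 2.24%. H3K4me3 of the same population overlapped 10.1% of the shared and 2.57% of the private peaks in cap mesenchyme, and 5.57% and 1.63% in ureteric epithelium. The private peaks were narrow, as the 1 bp rule favours, with median widths of 177 bp and 267 bp. A width of 2 kb was reached by only 20 of the 65604 cap mesenchyme ones and 161 of the 103032 ureteric ones. Of the private peaks, 47.2% in cap mesenchyme and 33.8% in ureteric epithelium ended within 1 kb of a peak of the other list. The peaks of highest score with a gene within 5 kb were covered almost whole by the other list. In cap mesenchyme they lay at Nfix, Foxa2, Fcgr3, Tfap2c and Dlx4, 97.7% to 100% covered. In ureteric epithelium 7 peaks tied at a score of 3100, at Fcgr3, 9230019H11Rik, Ttll6, Gm36079 with Gm21188, Ndst3 and Ulk4, 93.3% to 99.3% covered.

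To describe the broad form of the mark, peaks of a list were joined over gaps of up to 5 kb. A domain was called wide from 10 kb with at least 50% of its span under peaks. Cap mesenchyme had 263 wide domains with a median width of 21.7 kb, holding 18.49% of its covered bases. Ureteric epithelium had 308 with a median of 20.5 kb, holding 11.1%. A protein-coding gene lay in or at 89.0% and 87.3% of them. A wide domain was shared when peaks of the other list covered at least 30% of it and private under 5%. By that rule 250 of 263 were shared in cap mesenchyme and 4 private, while in ureteric epithelium 272 of 308 were shared and 9 private. Over the 346 loci with a wide domain in either, the covered share differed by under 10 percentage points at 161 (46.5%), and by 50 or more at 8 loci in favour of cap mesenchyme and 19 in favour of ureteric epithelium.

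Among the widest shared domains were several over regulators of other organs and over predicted genes. Zic1 and Zic4, factors of the dorsal nervous system, had a domain of 85.4 kb on the cap mesenchyme side and 80.1 kb on the ureteric side. Olig2 and Olig1, factors of glia and motor neurons, had one of 68.5 kb in cap mesenchyme. Tbx5, a factor of heart and forelimb, had 57.4 and 56.1 kb, and Nkx2-3, a factor of gut and spleen, had 56.5 and 59.5 kb. The senescence locus of Cdkn2a and Cdkn2b, inhibitors of cell cycle kinases, had 54.9 and 54.6 kb. The domain of 165 kb at Gm36079 and Gm21188 on chromosome 13, and 152 kb in ureteric epithelium, was the widest of both lists. The ureteric domain over HoxC, from Hoxc13 to Hoxc4, measured 149.7 kb and counts as shared by the 30% rule, but it was 86.9% covered in ureteric epithelium and 33.8% in cap mesenchyme. Some shared wide domains had almost no stem cell counterpart: at Sox2 (35.9 and 36.8 kb), a pluripotency and neural factor, stem cell H3K27me3 covered 2.30% of the cap mesenchyme domain, and at Nr5a2 it covered none. The part of the shorter stem cell list in this was not tested.

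The 9 private wide domains of ureteric epithelium were at Wt1 (27.8 kb; chromosome 2, 105112285 to 105140062), Uncx (27.1 kb; chromosome 5, 139532610 to 139559668), the long noncoding Gm29683 (22.6 kb), Lmx1b (21.9 kb), Six2 (20.5 kb; chromosome 17, 85674130 to 85694583), Foxd2 (17.995 kb), Osr1 (13.8 kb; chromosome 12, 9570531 to 9584370), Tcf21 (12.7 kb) and Rbm20 (10.5 kb). Cap mesenchyme had no peak in 8 of these 9 domains, and in the ninth, at Lmx1b, its peaks covered 1.96%. The 4 private wide domains of cap mesenchyme lay at a run of predicted genes on chromosome 6 that ends in Gm40363 (35.4 kb), at Hs3st3b1, a heparan sulphate sulphotransferase (25.2 kb), at Mecom (21.6 kb) and at Irx3 (12.8 kb). Wide domains of cap mesenchyme that the ureteric list covered in part were at Pou3f3 (43.9 kb, 7.24% covered), Emx2 (27.2 kb, 19.5%), Lhx1 (22.02 kb, 16.1%), Prdm16 (24.8 kb, 23.3%), Bcl11a, Barhl1 and Lef1. Genome positions here and below are mm10, counted from 1.

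**Figure D2:**
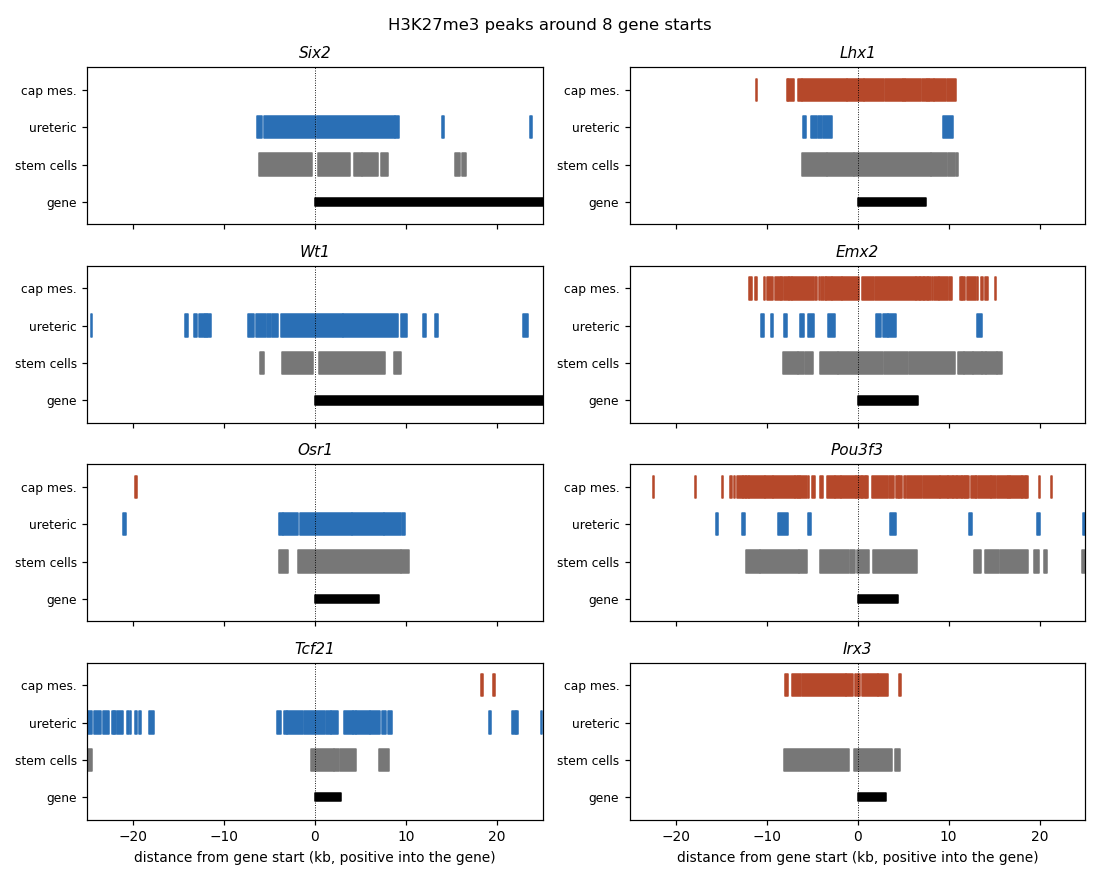
H3K27me3 peaks within 25 kb of the starts of 8 genes, in cap mesenchyme (red), ureteric epithelium (blue) and embryonic stem cells (grey), with the gene in black; the horizontal axis is distance from the start in kb, positive into the gene. At Six2, Wt1, Osr1 and Tcf21 (left) the ureteric track is filled around the start and the cap mesenchyme track is empty there, while at Lhx1, Emx2, Pou3f3 and Irx3 (right) the cap mesenchyme track is the filled one.

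Gene by gene, the part of the start plus and minus 5 kb that lay under H3K27me3 peaks was compared, and a gene was called at a difference of 50 percentage points or more. Of 34328 genes, 31 (0.0903%) were called with more in cap mesenchyme and 67 (0.195%) with more in ureteric epithelium. Of the 21631 protein-coding genes, 18 (0.0832%) and 48 (0.222%) were called. They lay in few places: the 31 genes formed 17 separate regions and the 67 formed 37. Of the protein-coding ones, 6 of the 18 and 13 of the 48 are predicted genes with Gm symbols in multicopy stretches, where reads of near-identical copies cannot be assigned with certainty. H3K27me3 covered at least 50% of the window at 288 protein-coding genes (1.33%) in cap mesenchyme and 415 (1.92%) in ureteric epithelium, and 252 genes were among both. The calls nearest to the limit were Hoxc11 just inside (50.3 points) and Hoxa10 just outside (49.9 points) on the ureteric side. On the cap mesenchyme side they were Slc18a3 just inside (51.0 points) and Nfib just outside (49.3 points).

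**Figure D3:**
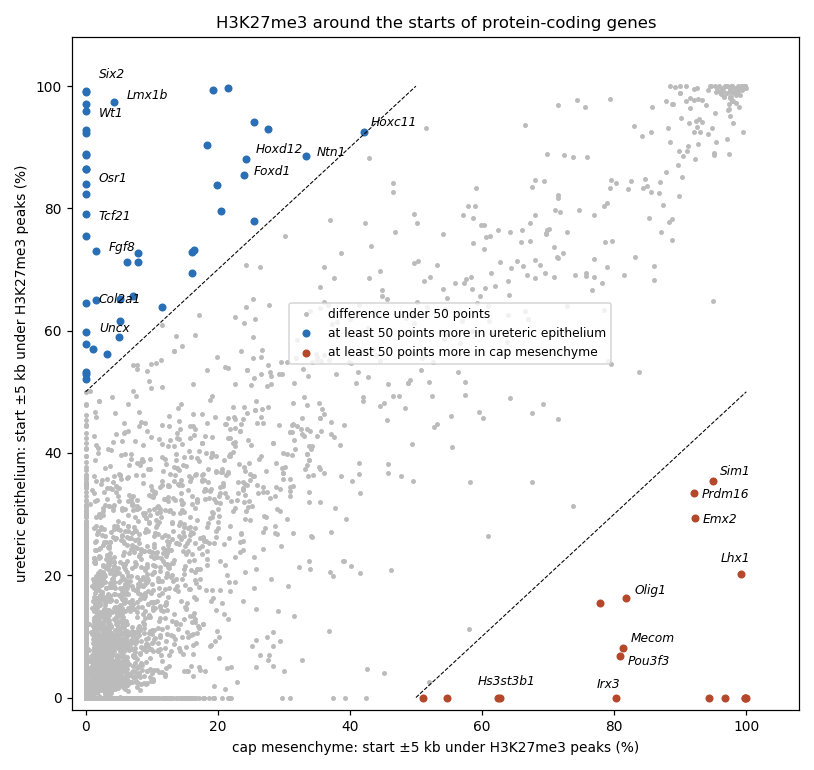
Percent of the start plus and minus 5 kb under H3K27me3 peaks for 21631 protein-coding genes, cap mesenchyme (horizontal) against ureteric epithelium (vertical); dashed lines mark a difference of 50 points. Blue points are the 48 genes with at least 50 points more in ureteric epithelium and red points the 18 with at least 50 points more in cap mesenchyme; most genes covered at 50% or more lie in the upper right.

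Among 25 nephron progenitor genes, 7 were called with more in ureteric epithelium and none with more in cap mesenchyme. The list, like all lists here, was chosen with earlier results of these data known. Six2, which keeps the progenitors undifferentiated, had no peak in its window in cap mesenchyme and 99.1% coverage in ureteric epithelium, from 2 peaks of which the wider measured 8.63 kb and the best ranked at percentile 99.87 of its list. Wt1, a zinc finger factor of progenitors and podocytes, stood at 0% and 96.0%. Hoxd11 and Hoxa11, Hox factors needed for the kidney to form, stood at 0% and 92.3%, and at 0% and 89.0%. Osr1, an early factor of the nephrogenic mesoderm, stood at 0% and 86.4%, and Uncx, a homeodomain factor, at 0% and 59.8%. Hoxc11 was the one member of the 7 with cap mesenchyme peaks, at 42.2% and 92.5%. All 7 windows were also covered in stem cells, from 79.0% at Osr1 to 99.3% at Hoxa11. Gdnf, the ligand of Ret, stood at 0% and 25.8%, Rspo3, a Wnt agonist, at 0% and 23.7%, and Sall1 at 0% and 16.7%, so these progenitor genes leaned the same way without being called. Eya1, a partner of Six2, had 0% and 2.55%. Of the relatives of Six2, Six3 was covered in both populations (100% and 99.7%), although it is the neighbour of Six2 on chromosome 17 with its start at 85613608, and Six4 and Six5 had none in either.

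Genes of the renal stroma and of the podocyte leaned to the ureteric side. Tcf21, a factor of stroma and podocytes, stood at 0% in cap mesenchyme and 79.2% in ureteric epithelium. Foxd1, a factor that marks the cortical stroma, stood at 24% and 85.5%, and Ntn1, a guidance ligand of the stroma, at 33.4% and 88.6%. These 3 were the called members of 17 stroma genes. Of the others, Foxc1 (46.1%), Meis1 (44.5%), Meis2 (33.5%), Aldh1a2 (30.4%), Foxc2 (22.7%) and Nr2f1 (19.3%) had partial coverage in ureteric epithelium and at most 1.35% in cap mesenchyme. Tbx18, Osr2, Ebf1 and Hic1 were covered in both, Tbx18 at 92.3% and 88.0%. Of 13 podocyte genes, Lmx1b was called, at 4.29% and 97.3%, and Nphs1, which encodes nephrin of the slit diaphragm, stood at 33.9% and 63.2%. Among 21 mesenchymal genes, Prrx1 was called, at 5.18% and 61.6%. The median ureteric coverage was 44.5% for the stroma list and 16.7% for the progenitor list, against medians of 0 for both lists in cap mesenchyme and of 0 over all protein-coding genes.

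Most calls among genes of the ureteric tree and of the early nephron were on the cap mesenchyme side, while the lists as a whole did not lean that way. The median coverage was 1.55% in cap mesenchyme and 4.90% in ureteric epithelium for the ureteric list, and 3.42% and 3.44% for the early nephron list, and 13 and 15 of the 25 ureteric genes had any peak in the window. Lhx1, a LIM factor of the ureteric bud and of the renal vesicle, stood at 99.2% in cap mesenchyme and 20.2% in ureteric epithelium, where the start itself was free and the peaks in the window lay before it. Emx2, without which the bud does not grow, stood at 92.2% and 29.4%. Pou3f3, a POU factor of the distal nephron, stood at 80.8% and 6.87%, and Irx3, a factor of the intermediate tubule, at 80.3% and 0%. In all, 3 of 25 ureteric genes and 4 of 20 early nephron genes were called on this side, and Lhx1 is in both lists. Fgf8, a growth factor of the early nephron, went the other way, at 1.55% and 73.1%. Tfap2b, a factor of the ureteric epithelium, stood at 67.6% and 35.2% without being called.

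Several regulators of the ureteric tree kept the mark in ureteric epithelium itself. Gata3, a zinc finger factor of the nephric duct, was covered at 97.3% in cap mesenchyme and 96.2% in ureteric epithelium. Tfap2a stood at 98.4% and 99.1%, Gata2 at 87.3% and 80.6%, Wnt7b at 59.2% and 64.5%, Wnt9b, the signal that induces the nephron, at 51.7% and 63.9%, and Wnt11, a ligand of the ureteric tips, at 33.6% and 52.5%. Ret, the receptor of Gdnf, had 5.02% and 4.90%, and Pax2 and Pax8, factors used by both lineages, had none in either population, while stem cells covered Pax2 at 99.0%.

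Among factors of other lineages the populations hardly differed. Of 40 neural factors 36 were covered at 50% or more in cap mesenchyme and 38 in ureteric epithelium, 35 in both, and the 1 called was Olig1 (81.8% and 16.3%). Its neighbour Olig2 stood at 98.7% and 100%. Of 40 mesoderm and endoderm factors 33 and 32 were covered, 32 in both, and the 1 called was Sim1 (94.99% and 35.4%), a factor of the hypothalamus. By family, 11 of 16 Tbx genes, 12 of 14 Nkx genes, 6 of 9 Pax genes, 5 of 6 Dlx genes and 4 of 6 Gata genes were covered at 50% or more in both populations. None of 1106 olfactory receptor genes, 353 vomeronasal receptor genes, 49 Krt genes, 20 cell cycle genes or 17 housekeeping genes reached 50% in either. For 25 epithelial genes the count was 1 in each population, the same gene, Esrp1, a splicing factor of epithelia (83.8% and 53.3%). Over all protein-coding genes 1.33% in cap mesenchyme and 1.92% in ureteric epithelium reached 50%. The Krt, cell cycle, housekeeping and epithelial lists are thus too short to be told apart from that share.

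Hox genes, whose products set position along the body, were compared gene by gene. In HoxC, cap mesenchyme coverage stopped at the start of Hoxc11: joined over gaps of 1 kb, its peaks ran from 102920404 to 102954426 on chromosome 15, just before the annotated start of Hoxc11 at 102954526. Hoxc13 and Hoxc12 were covered in both populations, at 98.0% and 93.9%, and at 99.7% and 99.8%. From Hoxc10 to Hoxc4 cap mesenchyme had 0% at each of 6 genes and ureteric epithelium from 82.4% at Hoxc8 to 99.0% at Hoxc9. In HoxD the ureteric mark ended between Hoxd10 (75.5%) and Hoxd9 (9.86%), and the cap mesenchyme mark had thinned out by Hoxd12 (24.3%) from Hoxd13 (85.8%). In HoxA the ureteric coverage was 74.9% at Hoxa13, 89.0% at Hoxa11, 49.9% at Hoxa10, 22.03% at Hoxa9 and 8.53% at Hoxa7, and cap mesenchyme had 0% at all of these but Hoxa13 (88.7%). In HoxB only Hoxb13 was covered at 50% or more, at 89.2% and 99.8%. Of the 39 Hox genes, 11 were called with more in ureteric epithelium and none with more in cap mesenchyme, and 37 were covered at 50% or more in stem cells.

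**Figure D4:**
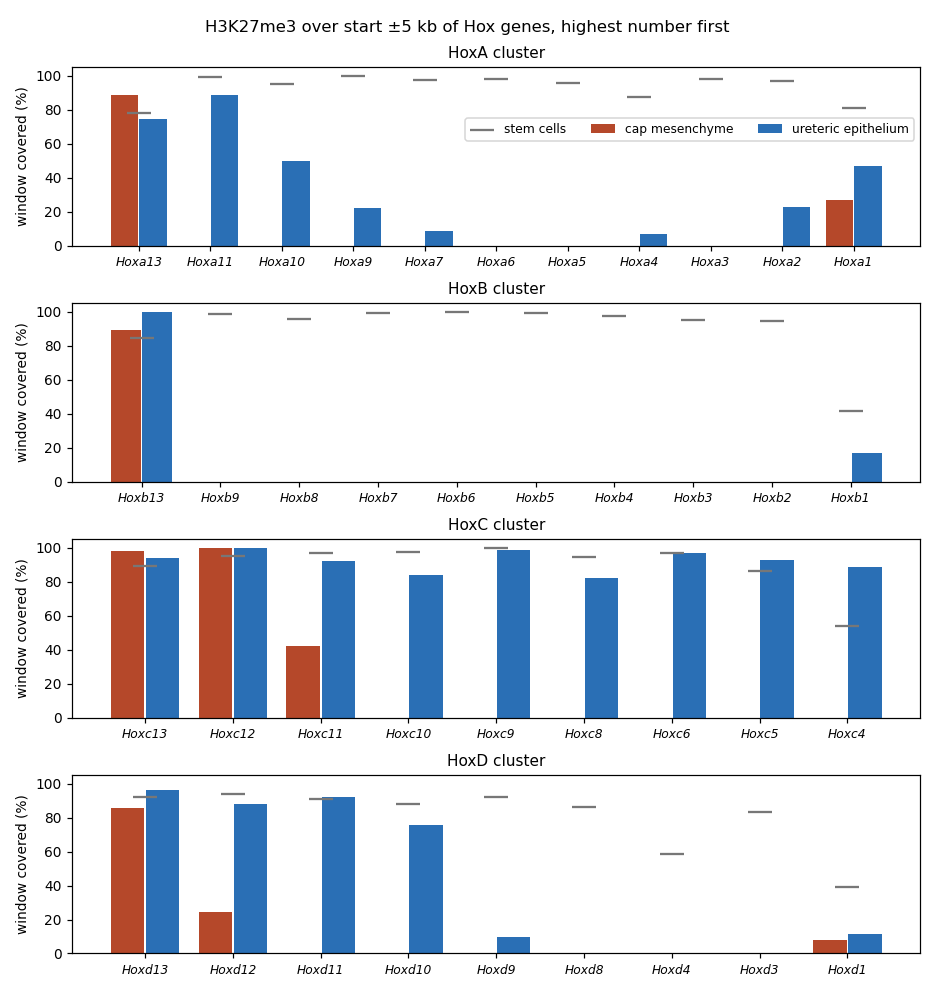
Percent of the start plus and minus 5 kb under H3K27me3 peaks for each Hox gene, in order of gene number along the clusters, in cap mesenchyme (red bars), ureteric epithelium (blue bars) and stem cells (grey dashes). Genes with no bar have no peak in the window; the cap mesenchyme bars end at Hoxc11 in HoxC, while the ureteric bars go on to Hoxc4.

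Coverage was then read by distance from these starts. Within 5 kb the values restate the rule that chose the genes. Those from 10 to 20 kb lie outside the window of the gene itself, though peaks can run across its edge. Many called genes are neighbours, as in HoxC, so this stretch of one gene can lie in the window that chose another. The values from 10 to 20 kb are thus also partly set by the rule. At the 48 genes called with more in ureteric epithelium, ureteric peaks covered on average 85.3% of the start plus and minus 1 kb, 72.0% of the stretch from 1 to 5 kb before it and 81.0% from 1 to 5 kb after it. Cap mesenchyme covered 5.80%, 11.1% and 7.83% of the same stretches. From 10 to 20 kb the ureteric and cap mesenchyme values were 41.9% and 16.1% before the start and 32.5% and 2.96% after it. At the 18 genes called with more in cap mesenchyme, cap mesenchyme covered 85.7% of the start plus and minus 1 kb and ureteric epithelium 1.80%. From 10 to 20 kb they covered 28.7% and 5.85% before the start and 33.1% and 6.59% after it. The genes covered in both had like levels in both, 89.6% and 93.1% at the start. From 1 to 5 kb, the more covered population of each group of called genes, and both populations at the genes covered in both, had more on the side after the start than before it. From 10 to 20 kb this held for cap mesenchyme at its 18 genes but not for ureteric epithelium at its 48.

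Other measures, which the choice of genes did not use, were then read at the same starts. The intervals count neighbouring genes under 1 domain as separate, so they are too narrow. In stem cells H3K27me3 covered at least 50% of the window at 39 of the 48 genes with more in ureteric epithelium (81.3%; interval 67.4 to 91.1), at 14 of the 18 with more in cap mesenchyme (77.8%; 52.4 to 93.6) and at 192 of the 252 covered in both (76.2%; 70.4 to 81.3). Over all protein-coding genes it did at 1.82%. H3K4me3 within 1 kb of the start was found in cap mesenchyme at 45 of the 48 genes with more H3K27me3 in ureteric epithelium (93.8%; 82.8 to 98.7) and in ureteric epithelium at 37 of 48 (77.1%; 62.7 to 88.0). At the 18 genes with more in cap mesenchyme it was found at 11 and at 9. Of the 252 genes covered in both, 80.2% (74.7 to 84.9) had it in cap mesenchyme but 39.3% (33.2 to 45.6) in ureteric epithelium, against 64.3% and 60.4% of all protein-coding genes. The H3K4me3 lists differ in length, with 32920 and 23887 peaks, and the part of this in the difference was not tested. With the upper 50% of each H3K4me3 list, the 37 of 48 became 22. H3K4me3 and H3K27me3 at a start in a sorted population need not lie in the same cell.

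RNA of the called genes, where it reached 1 FPKM, was lower on the side with more H3K27me3, by less than 4-fold at 7 genes. Differences are log2(FPKM + 1), metanephric mesenchyme minus ureteric bud, where the added 1 FPKM understates the change of low genes, and 4-fold is a difference of 2. Over the 9547 protein-coding genes at 1 FPKM or more in both tissues the median was -0.46, so values are to be read relative to that. Of the 48 genes with more H3K27me3 in ureteric epithelium, 21 were at least 4-fold higher in metanephric mesenchyme, none was 4-fold higher in ureteric bud, 7 lay between and 20 were under 1 FPKM in both. Of the 18 genes with more in cap mesenchyme, 9 were at least 4-fold higher in ureteric bud, none in metanephric mesenchyme, 5 were under 1 FPKM in both and the other 4 had no RNA value. With the tissue medians set equal, these counts of 21 and 9 became 25 and 8, with none in the opposite direction. Among the 11223 protein-coding genes at 1 FPKM or more in either tissue, 207 (1.84%) were 4-fold higher in metanephric mesenchyme and 466 (4.15%) in ureteric bud. With 1 library per tissue these are descriptions, and fewer cells of a type and less RNA per cell cannot be told apart.

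On the ureteric side the largest RNA differences were at Hoxc10 (61.1 FPKM in the mesenchyme and 0.261 in the bud, log2 difference 5.62), Hoxd10 (50.3 and 0.312, 5.29), Wt1 (42.1 and 0.126, 5.26), Uncx (29.2 and 0.0772, 4.81) and Tcf21 (46.5 and 0.977, 4.59). Six2 was at 55.5 and 1.58 FPKM (4.45), and Osr1 at 19.9 FPKM and listed at 0 (4.39). On the cap mesenchyme side large differences were at Emx2 (1.43 and 225 FPKM, -6.54), Pou3f3 (0.0104 and 47.5, -5.58), Sim1 (0.00590 and 22.1, -4.52) and Lhx1 (0.0532 and 18.4, -4.20). Mecom, a zinc finger factor, was covered at 81.4% in cap mesenchyme and 8.18% in ureteric epithelium. Its RNA stood at 18.2 FPKM in the E11.5 metanephric mesenchyme, which also holds other cells (90.7 in ureteric bud). The called genes with the smallest RNA differences were named after their values were seen: Ntrk3, a neurotrophin receptor (2.49 and 2.46 FPKM, 0.01), Col2a1, the collagen of cartilage (16.7 and 14.3, 0.21), and Smug1, a DNA repair glycosylase (2.30 and 1.37, 0.48). All of these lie above the median of -0.46 over all genes.

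**Figure D5:**
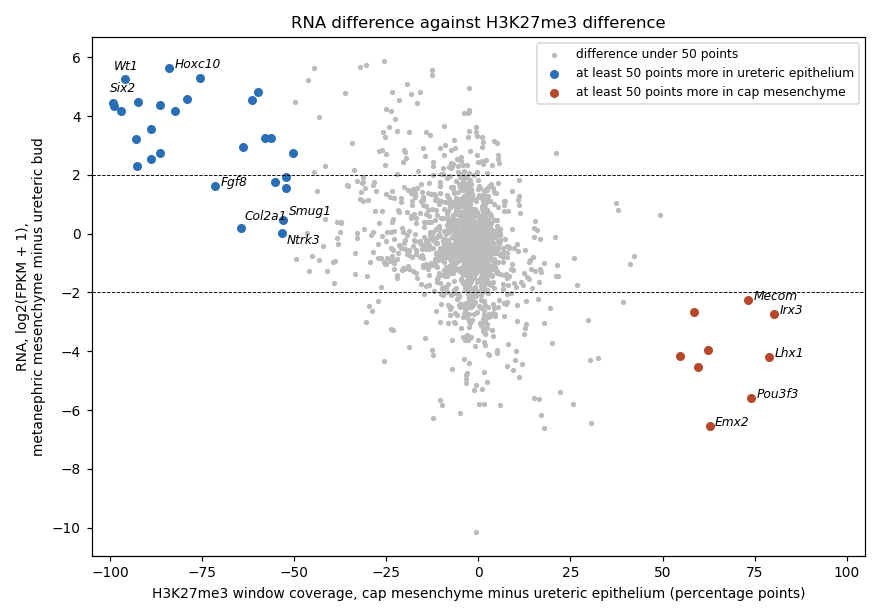
RNA difference, log2(FPKM + 1) of metanephric mesenchyme minus ureteric bud, against the difference in H3K27me3 window coverage in percentage points, for protein-coding genes at 1 FPKM or more in either tissue with H3K27me3 in either population; dashed lines mark 4-fold. The 9 red points (more H3K27me3 in cap mesenchyme) all lie under the lower line, and 21 of the 28 blue points (more in ureteric epithelium) lie above the upper one.

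H3K27me3 over a start mostly went with little RNA, with named exceptions. The RNA was of dissected E11.5 tissue, whose mesenchyme also holds stromal cells, and the mark was of cells sorted at E18.5 or E15.5. At an exception the RNA and the mark need not come from the same kind of cell, and this was not tested. Of the 248 genes covered at 50% or more in both populations that had an RNA value, 205 (82.7%) were under 1 FPKM in both tissues, against 46.5% of all protein-coding genes with a value. Among genes covered at 50% or more, 6 of 279 (2.15%) in cap mesenchyme reached 10 FPKM in metanephric mesenchyme, and 14 of 411 (3.41%) in ureteric epithelium reached it in ureteric bud, against 16.9% and 23.6% of all protein-coding genes. The ureteric exceptions included Gata3 (95.7 FPKM), Esrp1 (90.6), Tbx2 (65.5), Tbx3 (55.5), Tfap2a (38.2), Wnt11 (32.3) and Wnt9b (16.5). Of these Gata3, Esrp1, Tbx2, Tbx3, Tfap2a and Wnt11 had H3K4me3 at the start in ureteric epithelium, and Wnt9b did not. The cap mesenchyme exceptions included Pdgfra, a growth factor receptor of stroma (25.8 FPKM, 88.4% covered), and Twist1, a mesenchymal factor (16.5 FPKM, 79.7%). Twist1 had H3K4me3 at the start in both populations, while Pdgfra had it in ureteric epithelium alone. Grb10, an imprinted gene, stood at 212 FPKM in ureteric bud with 54.8% of its window covered in ureteric epithelium.

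The window size decided part of the calls. With the gene span and 2 kb each side in place of the start, Six2 (39.0 points), Lmx1b (29.1), Wt1 (25.4), Prrx1 (11.7) and Ntn1 (2.1) were among those no longer called, in each case with the same direction. With 10 kb each side Hoxc11 (49.5 points), Fgf8 (35.8), Prrx1 (40.4), Ntn1 (33.0) and Olig1 (31.4) were among those lost, and with 2.5 kb each side Uncx (40.4). With 2.5 kb each side the protein-coding genes called with more in ureteric epithelium numbered 197, of which 46 were among the 48, and 4 of them were 4-fold higher in ureteric bud. The 30-point limit gave 31 genes with more in cap mesenchyme and 212 with more in ureteric epithelium, and the 70-point limit 9 and 19. Of the 66 called protein-coding genes, 31 kept their call under each of the 6 other windows and peak selections, among them Osr1, Tcf21, Foxd1, Hoxa11, Hoxd11, Emx2, Lhx1, Pou3f3 and Irx3. Of the 31, 12 were predicted genes with a Gm symbol and another was Ifnz, in stretches of near-identical copies where reads cannot be assigned with certainty.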

How the data were processed

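H3K4me3 and H3K27me3 were mapped on native chromatin cut with micrococcal nuclease, per the labels' protocols. The submitters' processing notes name mm10, Bowtie2 and MACS for the peaks, and TopHat, Cufflinks and Cuffdiff for the RNA. The sources used here give no versions, settings, read depths, control libraries or numbers of pooled libraries, and the input libraries were not analysed here. Each peak carries the authors' deposited score, with lowest values of 40 in cap mesenchyme and 30 in ureteric epithelium. RNA values are the authors' deposited FPKM per transcript, summed here per gene.

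Peaks on chromosomes 1 to 19 and X were used, leaving out 2449 in cap mesenchyme and 7666 in ureteric epithelium. Genes were the 34328 protein-coding and long noncoding genes of GRCm38.p6, matched by symbol and accession. Strand came from the RefSeq promoter table for 26794 and from the locus order of the RNA table for 6517, a rule that matched RefSeq at 24129 of 24129 genes. The 1017 without strand took the mean of both ends. A gene has 1 start here, its outermost.

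Coverage is the percent of bases under peaks. Python 3.11.15, numpy 2.4.6 and pandas 2.3.3 were used, intervals are Clopper-Pearson (scipy 1.17.1), and the interval code was checked on simulated peaks against bedtools 2.31.1. The genes named are members of 25 lists (468 genes) and 22 families, genes at the widest private and shared domains, at the peaks of highest score and with the largest RNA differences among called genes. A few members that these rules name are counted but not reported here by name. Members, lists and rules were chosen with earlier results of these data known. Alternatives were other overlap rules, gaps, windows, limits, peak selections, pseudocounts, filters and scalings.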

Additional observations from a re-analysis of the deposited data

How the results depend on the processing

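No paired analysis was possible because each population had 1 peak list and each tissue 1 RNA library. The cause of the shifts below was not tested, beyond what a stricter or wider rule does by its construction. The shared share of cap mesenchyme and ureteric peaks was 13.0% and 10.1% with reciprocal overlap of at least 50%, 31.4% and 13.0% with at least 50% of the peak covered, 35.6% and 21.3% in the upper 50% of each list by score, 33.4% and 26.97% at equal list length, and 25.7% and 29.995% at scores of at least 50. The counts of wide domains stayed within 1.5 times under all 5 alternatives, and of the private ones only the cap mesenchyme count went further, from 4 to 10 at scores of at least 50. Genes called with more in cap mesenchyme (18) numbered 11 over the gene span, 31 at 30 points and 9 at 70 points. Those with more in ureteric epithelium (48) numbered 197 with 2.5 kb and 27 with 10 kb each side, 212 at 30 points and 19 at 70 points. No called gene turned its direction under the 6 other windows and peak selections. The share of genes with more in ureteric epithelium whose RNA was 4-fold higher in metanephric mesenchyme (21 of 28) was 43.8% with no filter on low FPKM, 37.3% with 2.5 kb and 100% with 10 kb each side, 42.7% at 30 points and 93.8% at 70 points. The opposite share (100%) was 64.3% with no filter. H3K4me3 in ureteric epithelium at genes with more there (77.1%) fell to 45.8% with the upper 50% of each H3K4me3 list. Read depth behind the peak lists is unknown, so a gene without a peak may carry the mark below the caller's limit.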

Other observations

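Chromosome X held a larger share of the H3K27me3 peaks in both kidney populations than in the shorter stem cell list of 12731 peaks. It carried 9.34% of the cap mesenchyme peaks and 10.9% of the ureteric peaks, against 1.51% of the stem cell peaks, while 4.47% of the protein-coding genes lie on it. By covered bases the shares were 7.25%, 8.81% and 0.795%. H3K4me3 peaks on it made up 2.52% of the list in cap mesenchyme and 3.10% in ureteric epithelium. The X-linked H3K27me3 peaks were narrower than the autosomal ones, with median widths of 171 bp against 198 bp in cap mesenchyme and 262 bp against 287 bp in ureteric epithelium. They lay outside genes in 78.7% and 79.4% of cases, against 62.8% and 65.1% on autosomes. The share of genes is thus a poor yardstick for their number, and the share of X by length was not compared. Peaks of 2 kb or more numbered 9 on X and 712 on autosomes in cap mesenchyme, and 18 and 1548 in ureteric epithelium. The X-linked peaks were also shared less often between the 2 lists. The shares were 32.5% against 38.7% of cap mesenchyme peaks and 19.8% against 25.2% of ureteric peaks. The sources used here do not give the sex of the embryos, and its part in these values was not tested.

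Stretches of multicopy predicted genes differed from place to place. On chromosome 6, the 35.4 kb domain from Gm40369 to Gm40363 was 98.2% covered in cap mesenchyme and 0% in ureteric epithelium, while the neighbouring domain that begins at 47737043 in cap mesenchyme and at 47737034 in ureteric epithelium, at Gm52861 and Gm52862, was covered in both. On chromosome 4, a run of 35.7 kb around Ifnz and Gm13277, a cluster of interferon-like genes, was 86.1% covered in ureteric epithelium and 16.0% in cap mesenchyme, with all of its called genes listed at 0 or at most 0.03 FPKM in the RNA of both tissues. Which of such near-identical copies carries the mark cannot be told from the lists.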
